A study of Homo sapiens with 6 samples.

Results

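The genes described here are the replication-dependent histone genes, taken as every symbol in the count tables that starts with HIST1H, HIST2H, HIST3H or HIST4H and does not end in a pseudogene suffix. There were 75 of them among the 56637 symbols counted, with 6 for the linker histone H1, 17 for H2A, 23 for H2B, 14 for H3 and 15 for H4. RefSeq lists 5 of the 75 as pseudogenes in spite of their names (HIST2H2BA, HIST2H2BB, HIST2H2BC, HIST2H2BD and HIST3H2BA). They were kept, and 14 further HIST symbols were left out for their suffix.

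RNA came from MM.1S, an established line of multiple myeloma, which is a cancer of plasma cells. Cells for all 6 libraries had received a lentiviral short hairpin RNA and puromycin. In 3 libraries, called shLuc, the hairpin targeted luciferase, and in the other 3, called shKDM6B, it targeted KDM6B, which encodes a demethylase of lysine 27 of histone H3. The labels name no further hairpin and no rescue, so effects of KDM6B loss and of the hairpin sequence itself cannot be told apart. Transduction was done in triplicate, per the labels, which do not mention separate cultures, so a p-value here reflects how far single libraries differ, and that spread may be technical.

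Replication-dependent histone genes supply the histones that package newly copied DNA, and their mRNAs build up in S phase and are degraded when replication ends. Most lie in clusters, many as H2A and H2B pairs that face away from each other, and the transcription factor NPAT acts on them at a nuclear body. Their main mRNAs carry no introns and no poly(A) tail. They end instead just past a short stem-loop that is bound by SLBP, with the U7 small nuclear ribonucleoprotein (which holds LSM10 and LSM11) guiding the cut. Several of the same genes also give longer, polyadenylated RNAs, above all in cells that have stopped dividing.

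The stem-loop is what sets these mRNAs apart, so it is shown for the 8 genes with enough counts to test that have a GENCODE v29 transcript holding the motif GGNNCTTNTNAGANCC, searched on the sense strand. Where several transcripts of a gene hold it, the one that runs farthest past it was taken. The windows have 30 bases, read 5′ to 3′ on the gene's strand in GRCh38, and capitals mark the 16 bases of stem and loop.
HIST1H2AC: ccaaaGGCTCTTTTCAGAGCCcccctaccg
HIST1H2AE: ccaaaGGCTCTTTTCAGAGCCacccacctt
HIST3H2A: ataaaGGCTCTTTTCAGAGCCacctactat
HIST1H2BC: ccaaaGGCTCTTTTAAGAGCCacccagata
HIST1H2BD: ccaaaGGCTCTTTTAAGAGCCacgcatgtt
HIST1H2BH: ccaaaGGCTCTTTTCAGAGCCacttaatga
HIST2H2BE: ccaaaGGCTCTTTTCAGAGCCacccaccta
HIST1H3G: aaaaaGGCTCTTTTAAGAGCCgcctacttt
The window of HIST1H2AC is at chr6:26124664-26124693 on the plus strand and that of HIST2H2BE at chr1:149886179-149886208 on the minus strand. Of the 75 genes, 24 held the motif, against 20 of the 19599 protein-coding genes that are not among them (0.102%). The other 51 include many whose model stops before the stem-loop, so no match says nothing about the gene itself. In 16 of the 24 the annotated transcript ran on for more than 100 bases past the motif, including 1128 bases for HIST1H2AC, 1729 for HIST2H2BE, 1640 for HIST1H2BH and 1518 for HIST1H3G. Reads from such longer RNAs and from the short mRNA are summed in 1 count per gene and cannot be told apart here.

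Histone genes took up little of the sequencing. The 75 together had 629 to 843 counts per library, or 0.00799% to 0.00915% of the 7338393 to 9848351 counts of a library. The labels do not say whether RNA with a poly(A) tail was selected. Beside this, 12 other RNAs that carry no poly(A) tail, among them the small nuclear RNA RN7SK and the RNA of the nuclease MRP, RMRP, summed to 42.6 to 51.2 CPM (counts scaled to a library of 1000000 after correction by the trimmed mean of M-values, TMM). The 20 histone variant genes, whose mRNAs are mostly polyadenylated, summed to 1119 to 1288 CPM, against 80.8 to 91.4 CPM for the 75 replication-dependent genes.

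Of the 75 genes, 19 had 0 counts in all 6 libraries and 56 had at least 1. Many histone genes are near copies of each other, and reads that fit several genes may have been dropped, although their treatment is not given in the sources used here. As a measure of this, the share of 50-base windows of a gene found in no other GENCODE v29 gene was counted. Of the 19 genes at 0, 9 had under 10% of such windows, among them the duplicated pairs HIST2H2AA3 and HIST2H2AA4, HIST2H3A and HIST2H3C, and HIST2H4A and HIST2H4B. For these a level of 0 may not be a measure of expression. A further 8 of the 19 had over 90% of unique windows, including the testis genes HIST1H1T, HIST1H2AA, HIST1H2BA and HIST3H3, and 2 lay between. Among the 56 genes with counts, 39 had over 90% of unique windows and 2 had under 10%, HIST1H3D and HIST1H2AK.

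**Figure D1:**
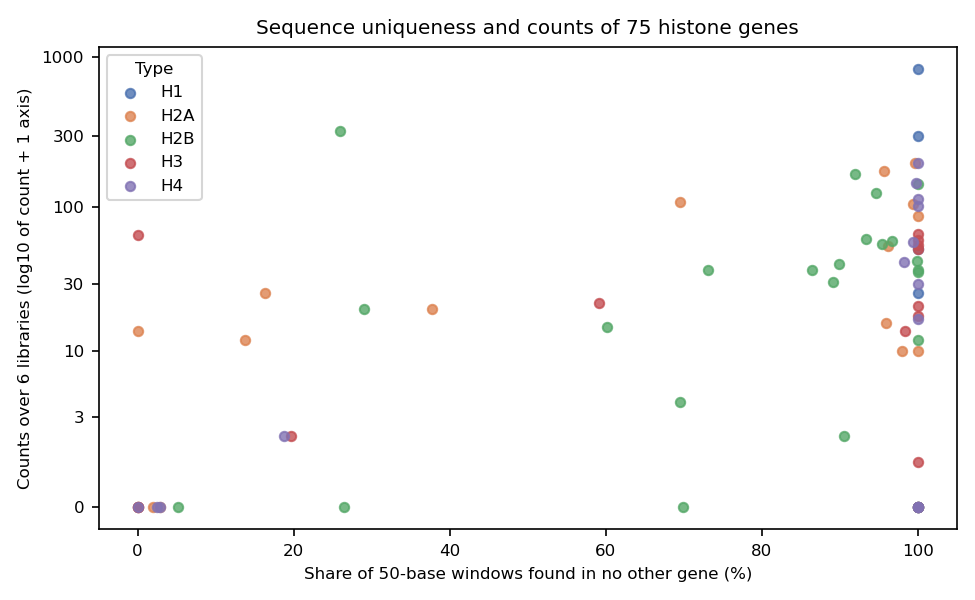
Each point is 1 of the 75 histone genes, with the share of its 50-base windows found in no other gene (horizontal axis, percent) against its counts summed over 6 libraries (vertical axis, log10 of count + 1), coloured by histone type. Of the 19 points at 0 counts, 9 lie under 10% and 8 over 90%, and HIST1H1C is the highest point with 839 counts.

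Markers of other cells were low but not even between groups. Values of single libraries are given here and below in the order of their replicate numbers. The 11 epithelial genes summed to 12.4, 2.94 and 3.31 CPM in shLuc and 36.0, 46.6 and 2.02 CPM in shKDM6B, mostly from keratins, and 3 of the 4 tested (KRT5, KRT14 and KRT19) were higher by edgeR, with overlapping groups, 1 by DESeq2 and 0 by limma-voom. The other tested one, EPCAM, was at 1.69 ± 0.45 CPM in shLuc and 0.934 ± 0.36 CPM in shKDM6B (SD, n = 3), with every shKDM6B library lower (edgeR adjusted p = 0.068). The 3 libraries with most of them were shLuc replicate 1 and shKDM6B replicates 1 and 2. The 5 T cell genes summed to 8.79, 10.6 and 8.93 CPM and to 6.62, 5.14 and 6.86 CPM, with CD3G at 0. Most of this was CD3E, at a mean of 7.60 CPM in shLuc and 5.05 CPM in shKDM6B. It was the 1 T cell gene tested and was lower by edgeR (adjusted p = 0.00727) and limma-voom, but did not pass by DESeq2. CD3D had 1 count, in shKDM6B replicate 3. The 4 erythroid genes summed to 19.5, 19.5 and 23.7 CPM and to 12.5, 10.5 and 13.2 CPM, with HBA2 at 0 and HBB lower. Monocyte genes summed to 1.51 to 3.11 CPM (FCGR3A at 0) and fibroblast genes to 0.220 to 3.47 CPM (LUM at 0). The part of T cell and erythroid genes in the histone values was not tested. Of 9 plasma cell markers all were tested, and 1 rose and 2 fell by edgeR (PRDM1 higher, TNFRSF17 and CD38 lower). Of all tested genes 39.1% passed by edgeR, 20.1% higher and 18.9% lower. The plasma cell sum ran from 2915 to 3388 CPM, far above those of the other cell types.

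The comparison asks whether histone genes differ between shKDM6B and shLuc libraries. KDM6B itself had 409, 505 and 437 counts in the shLuc libraries and 239, 270 and 348 in the shKDM6B libraries. Scaled, it was at 53.8 ± 4.9 CPM in shLuc and 32.6 ± 2.4 CPM in shKDM6B (SD, n = 3). Its log2 fold change was -0.71, so 0.611 of the control level of its RNA remained. After a filter on low counts 22 of the 75 genes were tested, with edgeR's quasi-likelihood test and Benjamini-Hochberg adjustment over all 13839 tested genes, to which every adjusted p below refers unless another fit is named. Among the 22, 1 rose (HIST1H3D) and 1 fell (HIST1H2AC), a share of 9.09%. HIST1H3D passed the filter through its shKDM6B libraries alone. Of all tested genes 39.1% passed, 20.1% higher and 18.9% lower in shKDM6B. Among the 4485 genes whose mean CPM lay within the range of the 22 histone genes, 1.08 to 16.4, it was 26.9%, with 10.7% higher and 16.1% lower. With other tests of the same libraries, limma-voom called the same 2 genes and the DESeq2 Wald test called 0 histone genes (3 at an unadjusted p under 0.05, of 33 with an adjusted p). Shares of all genes called are given for the main test and for the fit without a filter alone. Counts called by any other fit, in any paragraph, have no such share beside them and cannot be read against it. With the 3 libraries richest in keratins left out, 1 shKDM6B library remained, replicate 3. The spread in that fit was pooled over genes and came from the shLuc libraries alone. Its adjusted p-values, here and below, therefore do not measure how shKDM6B libraries differ. In that fit HIST1H2AC was at -0.65 (adjusted p = 0.114) and HIST1H3D at 1.33 (adjusted p = 0.0524). Of the histone genes 1 passed there, HIST1H2BO (log2 fold change 1.91, adjusted p = 0.0186), which had 6, 1 and 7 counts in shLuc and 4, 2 and 17 in shKDM6B.

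The 22 genes had a median log2 fold change of 0.014, with 12 above 0 and 10 below, beside -0.005 for all tested genes. Both medians moved with the scaling, to 0.071 and 0.053 when the TMM factors came from sparsely covered genes alone (under 0.03 counts per base of exon, a choice added after seeing the data; called sparse-gene scaling below), and to -0.004 and -0.023 with upper-quartile scaling. The CPM values of the 3 shKDM6B libraries lay wholly above or below those of shLuc for 4 of the 22 (18.2%) and for 48.4% of all tested genes. HIST1H3D was the gene above, among 24.5% of all tested genes, and HIST1H2AC, HIST1H2BK and HIST2H2BE were below, among 23.9%. Few counts stood behind each value. The median standard error (SE) of the log2 fold change was 0.27 for the 22 genes and 0.066 for all tested genes, and the 95% intervals reached from 0.23 to 0.77 to either side, with a median of 0.57. In a bulk sample, fewer cells in S phase and less histone RNA per cell cannot be told apart.

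**Figure D2:**
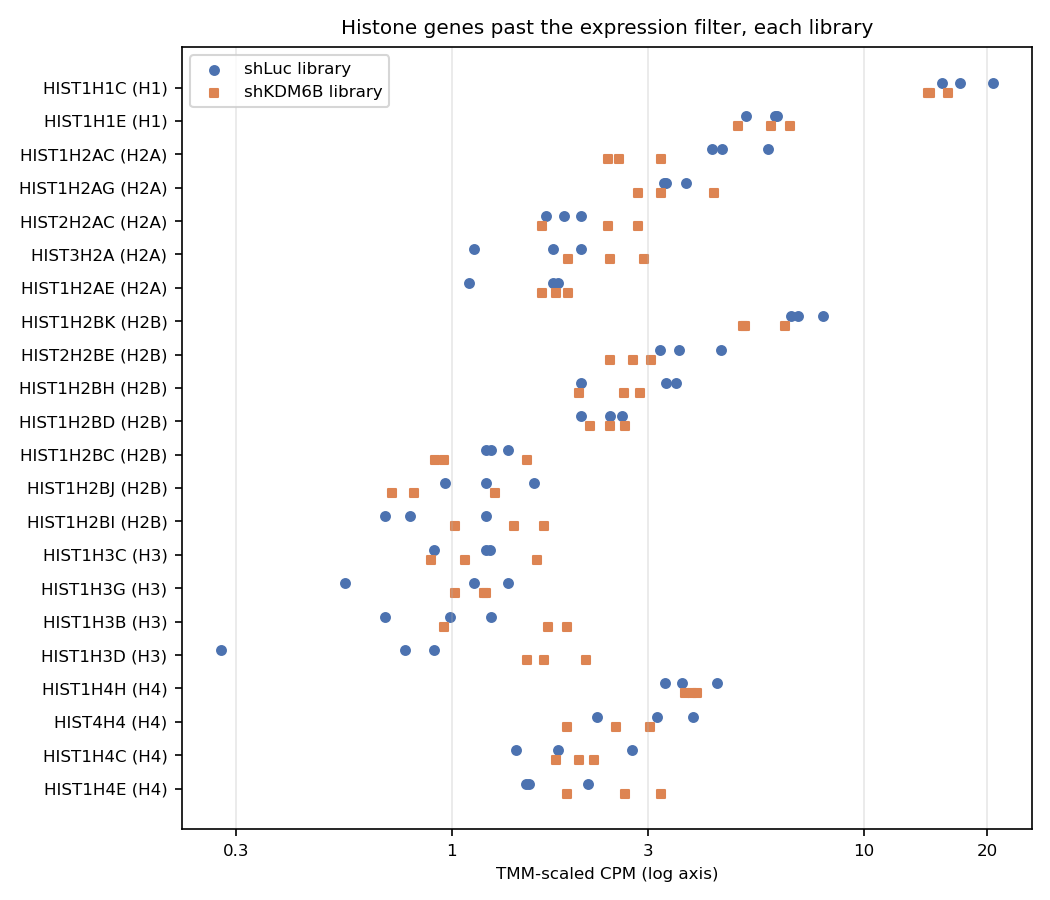
Level of each of the 22 tested histone genes in each library, as TMM-scaled CPM on a log axis, with circles for the 3 shLuc and squares for the 3 shKDM6B libraries, grouped by type. The groups do not overlap for HIST1H3D (higher) or for HIST1H2AC, HIST1H2BK and HIST2H2BE (lower).

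Linker histone H1 binds DNA between nucleosomes. HIST1H1C, which encodes H1.2, held 839 of the histone counts, 19.2% of those of all 75 genes and 69.1% of those of the H1 genes. It was at 17.2, 20.7 and 15.5 CPM in shLuc and at 14.5, 16.01 and 14.3 CPM in shKDM6B. The shKDM6B values were low, but the highest of them was above the lowest shLuc value. Its log2 fold change was -0.25 (SE 0.11, 95% interval -0.49 to -0.02), with an adjusted p of 0.0775 that missed the threshold. Without shLuc replicate 3, the lowest of its group, it was -0.36 and passed (adjusted p = 0.0156). Over the 6 fits with 1 library left out it ran from -0.36 to -0.13 (adjusted p 0.0156 to 0.426). HIST1H1E, for H1.4, was at 5.82 ± 0.56 CPM in shLuc and 5.85 ± 0.84 CPM in shKDM6B (SD, n = 3), with a log2 fold change of -0.00 and an interval from -0.36 to 0.35. The 6 H1 genes summed to 25.3 ± 3.2 CPM and 22.2 ± 1.3 CPM (SD, n = 3), and the groups overlapped.

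Histone H2A pairs with H2B at the edge of the nucleosome core. HIST1H2AC had 33, 52 and 39 counts in shLuc and 20, 20 and 32 in shKDM6B. The levels were 4.53, 5.87 and 4.30 CPM in shLuc and 2.55, 2.39 and 3.23 CPM in shKDM6B. All 3 shKDM6B values were below all 3 shLuc values. The gene fell by 0.83 on the log2 scale (SE 0.21, 95% interval -1.28 to -0.39, adjusted p = 0.0035), to 0.561 of the control level, and 99.6% of its windows were unique to it. The adjusted p was 0.0516 with the DESeq2 Wald test and 0.114 without the keratin-rich libraries.

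The other 4 tested H2A genes did not pass, and their groups overlapped. HIST3H2A, from the small cluster on chromosome 1, was at 2.06, 1.13 and 1.76 CPM in shLuc and at 2.42, 1.91 and 2.93 CPM in shKDM6B (log2 fold change 0.58, SE 0.29, adjusted p = 0.115). HIST2H2AC had a log2 fold change of 0.32 (95% interval -0.25 to 0.89) and HIST1H2AE one of 0.18 (-0.42 to 0.78). HIST1H2AG, whose product is shared by several H2A genes, was at 3.43 ± 0.24 and 3.46 ± 0.78 CPM (SD, n = 3) and had a log2 fold change of -0.00 (-0.45 to 0.45).

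The 17 H2A genes summed to 16.4 ± 0.38 CPM in shLuc and 15.9 ± 1.1 CPM in shKDM6B (SD, n = 3), with overlap. With HIST1H2AC left out, a choice made after its value was seen, the remaining 16 summed to 11.5, 10.95 and 12.1 CPM in shLuc and to 12.9, 12.8 and 13.9 CPM in shKDM6B. Without that gene every shKDM6B library was above every shLuc library, so HIST1H2AC and the sum of the other H2A genes lay on opposite sides. A gene picked for its fall leaves a higher remainder, and no test was made.

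Of the 7 tested H2B genes 0 passed by edgeR, limma-voom or DESeq2, and 2 had an unadjusted p under 0.05 by edgeR (HIST1H2BK and HIST2H2BE). By edgeR 39.1% of all tested genes passed, and 26.9% of those with a mean CPM within the range of the 22 histone genes. The H2B median log2 fold change was -0.25, with 5 of 7 genes below 0, beside a median of -0.005 for all tested genes. HIST1H2BK was the most abundant at 7.96, 6.66 and 6.94 CPM in shLuc and 5.09, 6.45 and 5.15 CPM in shKDM6B. The groups did not overlap, although shKDM6B replicate 2 was close to shLuc replicate 2 (log2 fold change -0.36, SE 0.16, adjusted p = 0.0831). Without shKDM6B replicate 2 the gene passed (-0.48, adjusted p = 0.0491). HIST1H2BK had an adjusted p of 0.0491 to 0.226 over the 6 fits with 1 library left out. Only 25.9% of its windows were unique, and it shared most with H2BFS, which had 0 or 1 counts per library.

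HIST2H2BE, which gives a long polyadenylated RNA in many resting cells, was at 3.57, 4.52 and 3.20 CPM in shLuc and at 3.05, 2.75 and 2.42 CPM in shKDM6B. All shKDM6B values were again lower (log2 fold change -0.47, SE 0.22, adjusted p = 0.103). Among the rest the log2 fold change was -0.46 for HIST1H2BJ (95% interval -1.21 to 0.29), -0.25 for HIST1H2BH (-0.77 to 0.26), -0.19 for HIST1H2BC (-0.89 to 0.51) and 0.02 for HIST1H2BD (-0.49 to 0.52). HIST1H2BI lay on the other side at 0.59 (-0.15 to 1.33). Over all 23 H2B genes the sum was 25.3, 26.5 and 25.2 CPM in shLuc and 22.3, 23.3 and 23.1 CPM in shKDM6B. The H2B sum was thus lower in every shKDM6B library, with a ratio of 0.892 ± 0.034 (SD from the spread of 3 libraries per group). With sparse-gene scaling the ratio was 0.928 and the nearest libraries of the groups all but met.

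Histone H3 carries lysine 27, the residue from which the KDM6B protein removes methyl groups. HIST1H3D had 2, 8 and 7 counts in shLuc and 12, 14 and 21 in shKDM6B, which is 0.275, 0.903 and 0.771 CPM against 1.53, 1.67 and 2.12 CPM. Every shKDM6B value was above every shLuc value. The gene passed the filter on low counts through the shKDM6B libraries alone, so its place among the tested genes rests on its high group. Its log2 fold change of 1.396 passed the test (SE 0.37, 95% interval 0.62 to 2.17, adjusted p = 0.0046), a rise of 2.63-fold from counts at the low end of those tested. It was 0.0786 with the DESeq2 Wald test and 0.0524 without the keratin-rich libraries.

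The identity of the HIST1H3D reads is uncertain. None of its windows was unique in GENCODE v29, where the read-through model AL031777.3 covers all of it and also 98.0% of HIST1H2AD. HIST1H2AD had 0 counts in every library. How reads in overlapping models were assigned, and which annotation was used, is not given in the sources used here. In addition, the library kit, as named in the labels, does not mark strand.

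The other 3 tested H3 genes were also above 0 without passing. HIST1H3B was at 0.687, 1.24 and 0.992 CPM in shLuc and at 1.91, 0.956 and 1.72 CPM in shKDM6B (log2 fold change 0.62, SE 0.36, adjusted p = 0.178), with shKDM6B replicate 2 inside the shLuc range. HIST1H3G (0.21, 95% interval -0.56 to 0.98) and HIST1H3C (0.14, -0.59 to 0.86) were nearer to 0. With 1 library left out they changed sign, from -0.12 to 0.45 for HIST1H3G and from -0.17 to 0.30 for HIST1H3C. Of the H3 genes that failed the filter, HIST1H3A, HIST1H3E, HIST1H3H and HIST1H3I were below 0 in the fit without it. HIST1H3F, HIST1H3J and HIST2H3D were above 0 there. The median of the 4 tested H3 genes was 0.41. All 14 H3 genes summed to 6.32, 7.23 and 5.51 CPM in shLuc and 7.89, 7.53 and 8.98 CPM in shKDM6B, a ratio of 1.28 ± 0.21 (SD from the spread of 3 libraries per group), with every shKDM6B library higher. With HIST1H3D left out, again a choice made after its value was seen, the sums were 6.04, 6.32 and 4.74 CPM against 6.36, 5.85 and 6.86 CPM. The H3 groups then overlapped.

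Histone H4 pairs with H3 at the centre of the nucleosome, and every H4 gene codes for almost the same protein. HIST1H4E was at 1.51, 2.15 and 1.54 CPM in shLuc and 1.91, 2.63 and 3.23 CPM in shKDM6B (log2 fold change 0.59, SE 0.28, adjusted p = 0.0976). Its lowest shKDM6B value, in replicate 1, was inside the shLuc range, and without that library the gene passed (0.76, adjusted p = 0.0488). Over the 6 fits with 1 library left out its adjusted p ran from 0.0488 to 0.381. HIST1H4H, the H4 gene with most counts, was at 3.77 ± 0.57 and 3.82 ± 0.13 CPM (SD, n = 3), and HIST1H4C at 2.00 ± 0.68 and 2.02 ± 0.21 CPM (SD, n = 3). HIST4H4, the lone gene outside the clusters, had a log2 fold change of -0.29 (95% interval -0.82 to 0.24). The 15 H4 genes summed to 13.4 ± 1.1 CPM and 13.9 ± 1.1 CPM (SD, n = 3), with overlap.

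**Figure D3:**
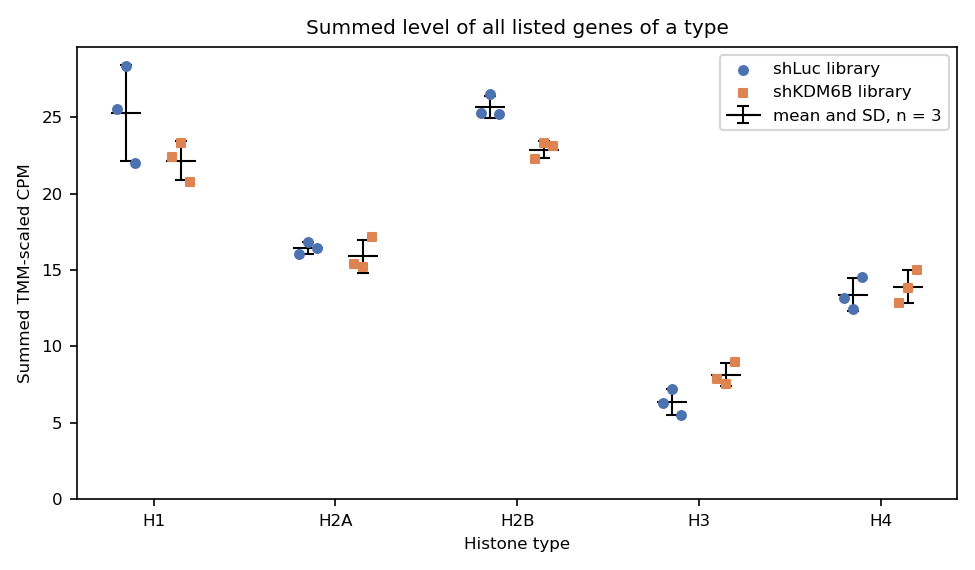
Summed TMM-scaled CPM of all listed genes of each histone type, with 1 point per library and the mean and SD over 3 libraries per group. The groups do not overlap for H2B (shKDM6B lower) and H3 (shKDM6B higher), and overlap for H1, H2A and H4.

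**Figure D4:**
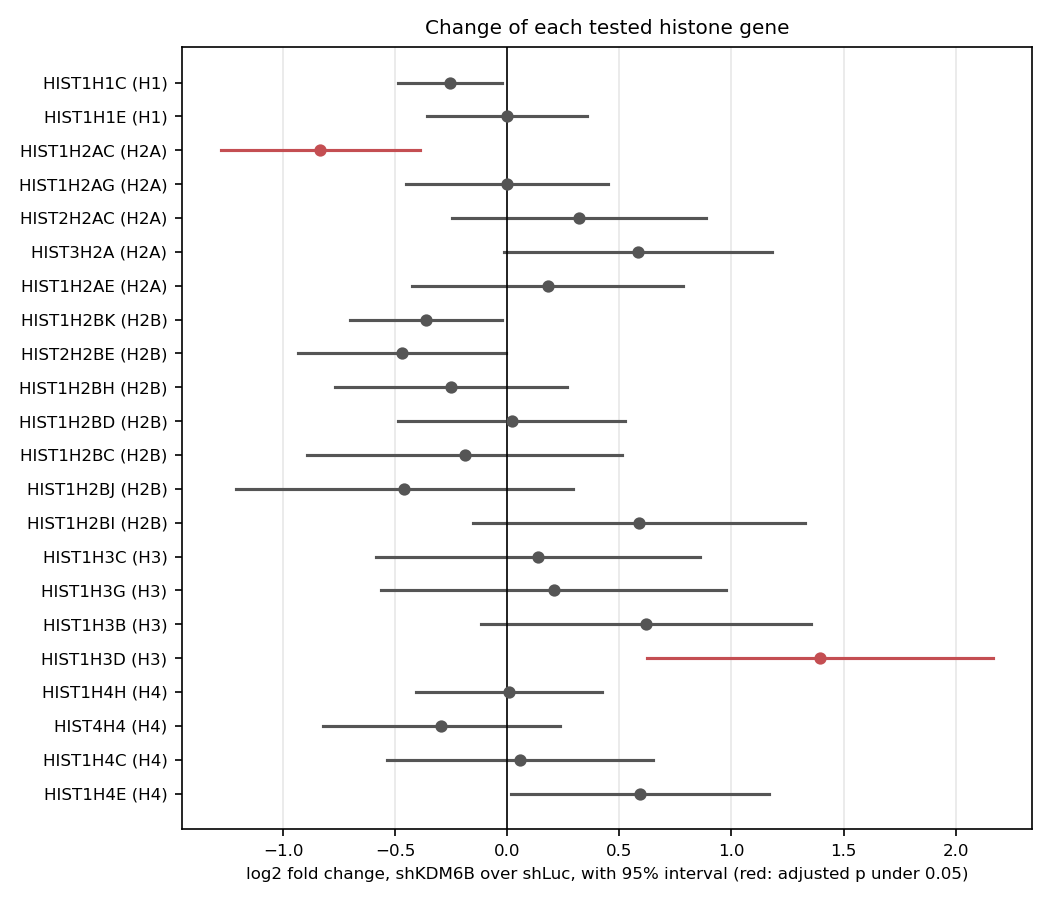
Log2 fold change of each of the 22 tested histone genes, shKDM6B over shLuc, with its 95% interval, grouped by type. HIST1H2AC (-0.83) and HIST1H3D (1.396), in red, passed an adjusted p of 0.05, and the 4 tested H3 genes all lie above 0. HIST1H3D passed the filter on low counts through its shKDM6B libraries alone.

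The sum over all 75 genes was 86.4, 91.4 and 83.7 CPM in shLuc and 80.8, 83.2 and 85.1 CPM in shKDM6B, with overlap and a ratio of 0.953 ± 0.049 (SD from the spread of 3 libraries per group). No sum was tested. The H2A ratio of 0.968 went to 1.01 with sparse-gene scaling, and that of all 75 genes to 0.991. Levels can be set between genes per kilobase of exon (GENCODE v29). HIST1H1C was highest at 27.7 ± 4.1 CPM per kilobase in shLuc, HIST1H2BK followed at 18.9 ± 1.8, HIST1H1E was at 7.72 ± 0.74, and HIST1H3G was lowest of the 22 at 0.422 ± 0.18 (SD, n = 3). Many histone models in that annotation hold the coding part alone, which raises their value per kilobase beside models with a long 3′ end.

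The promoters of the 2 genes that passed the test are shown here from RefSeq (GRCh38.p14) from 250 bases before to 50 bases after the start, on the gene's strand. Capitals mark 3 motifs on either strand: the TATA box as TATAAA, the CCAAT box as its name, and the octamer ATTTGCAT. Matches may overlap, as a TATAAA and its reverse complement do in some promoters. The first is at chr6:26123922-26124221 on the plus strand, and the 2 starts of HIST1H3D are at chr6:26199244-26199543 and chr6:26197237-26197536 on the minus strand.
HIST1H2AC: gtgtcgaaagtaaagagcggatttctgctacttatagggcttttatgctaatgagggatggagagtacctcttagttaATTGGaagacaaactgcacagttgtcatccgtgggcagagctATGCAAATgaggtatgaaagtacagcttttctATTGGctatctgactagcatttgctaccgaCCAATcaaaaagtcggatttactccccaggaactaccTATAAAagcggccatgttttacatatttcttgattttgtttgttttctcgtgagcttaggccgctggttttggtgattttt
HIST1H3D: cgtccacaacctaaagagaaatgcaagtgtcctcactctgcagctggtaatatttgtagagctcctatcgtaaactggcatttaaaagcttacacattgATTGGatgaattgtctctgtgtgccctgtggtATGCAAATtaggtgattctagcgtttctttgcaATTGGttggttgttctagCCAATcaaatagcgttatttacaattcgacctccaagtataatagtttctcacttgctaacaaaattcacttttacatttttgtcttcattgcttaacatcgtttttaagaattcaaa
HIST1H3D: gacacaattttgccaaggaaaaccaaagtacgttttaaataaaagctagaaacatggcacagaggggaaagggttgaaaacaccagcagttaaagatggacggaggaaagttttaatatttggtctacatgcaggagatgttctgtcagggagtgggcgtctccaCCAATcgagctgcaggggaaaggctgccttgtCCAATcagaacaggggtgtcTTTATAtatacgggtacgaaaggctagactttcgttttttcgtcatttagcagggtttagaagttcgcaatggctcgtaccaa
HIST1H2AC held 1 TATAAA, 3 CCAAT and 1 octamer. The upstream start of HIST1H3D held 3 CCAAT and 1 octamer without TATAAA, and the downstream start held 1 TATAAA and 2 CCAAT without an octamer. The upstream window lies at the divergent pair HIST1H2AD and HIST1H2BF, whose starts are 277 bases apart. HIST1H2AD had 0 counts, and whether HIST1H3D reads come from that start was not tested. A promoter was on file for 65 of the 75 genes. The octamer was found in 26 of these (40.0%) and in 1.77% of all 35097 promoters, TATAAA in 44 (67.7%) and in 11.53%, and CCAAT in 55 (84.6%) and in 34.6%. The units differ: a histone gene counted if any of its starts held the motif, while all promoters were counted singly. Windows of divergent partners can overlap, as for HIST1H2AC and HIST1H2BC, so 1 match can count for both genes. Of the 21 tested genes with a promoter, 11 held the octamer, 13 held TATAAA and 18 held CCAAT, so these letters did not single out the 2 that passed.

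Pairs of H2A and H2B genes that share such a promoter region allow a comparison at 1 site. In 13 pairs the starts lay 124 to 331 bases apart, and in 3 pairs both genes were tested. At HIST1H2AC and HIST1H2BC, 219 bases apart, the log2 fold changes were -0.83 (SE 0.21) and -0.19 (SE 0.34). At HIST2H2AC and HIST2H2BE, 323 bases apart, they were 0.32 (SE 0.27) and -0.47 (SE 0.22), and at HIST1H2AG and HIST1H2BJ, 292 bases apart, -0.00 (SE 0.22) and -0.46 (SE 0.36). The H2B partner was below 0 in each of the 3, and the difference within a pair was not tested.

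The 34 genes that had counts but failed the filter had 1 to 58 counts over the 6 libraries, with at most 17 in 1 library. HIST1H4I (58 counts), HIST1H2AH (54) and HIST1H1D (52) had most. Without the filter, where 18.5% of 29100 genes passed (9.46% higher, 9.09% lower), 1 of these 34 passed, HIST1H2AL, named after its value was seen. It had 0, 1 and 1 counts in shLuc and 5, 4 and 5 in shKDM6B (adjusted p = 0.0319). HIST1H3E, named for the same reason, had 3, 7 and 2 counts against 0, 0 and 2 (adjusted p = 0.0591). So few counts allow no statement on size.

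All 22 genes in a list of factors that make and process histone mRNA were tested. Sizes of change in this and the following lists are on the log2 scale. Of the 22, 2 rose and 3 fell, against 39.1% of all tested genes, with a median log2 fold change of -0.031 that was 0.026 with sparse-gene scaling. The number called was 2 with DESeq2 (1 higher, 1 lower), 3 without the keratin-rich libraries (1 higher, 2 lower) and 4 with sparse-gene scaling (3 higher, 1 lower). SLBP, which binds the stem-loop, was at 153 ± 3.9 and 152 ± 8.0 CPM (SD, n = 3), with a log2 fold change of -0.01 (95% interval -0.11 to 0.08). LSM11, a part of the U7 particle, was at 35.6, 31.5 and 38.3 CPM in shLuc and at 59.8, 61.7 and 55.8 CPM in shKDM6B. All 3 shKDM6B values were well above shLuc, and the gene rose by 0.75 on the log2 scale (SE 0.069, adjusted p = 1.31e-08).

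For LSM10, the partner of LSM11, the log2 fold change was 0.15 (SE 0.059) at an adjusted p of 0.0523, and for NPAT -0.15 (SE 0.062) at an adjusted p of 0.0546. LSM10 passed without shKDM6B replicate 3 (adjusted p = 0.0248) and NPAT without shLuc replicate 2 (adjusted p = 0.0274). With other single libraries left out, the adjusted p rose to as much as 0.274 for LSM10 and 0.237 for NPAT. CASP8AP2 (FLASH), which acts with NPAT and with LSM11, fell by 0.17 (SE 0.051, adjusted p = 0.0117). It did not pass without shLuc replicate 3 (adjusted p = 0.0672) or shKDM6B replicate 1 (adjusted p = 0.0534), with DESeq2 (adjusted p = 0.107) or with sparse-gene scaling (adjusted p = 0.191). The cyclins E, which activate CDK2 upstream of NPAT, went opposite ways: CCNE1 rose by 0.24 (adjusted p = 0.00193, and 0.0539 with DESeq2) and CCNE2 fell by 0.54 (adjusted p = 0.00169).

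**Figure D5:**
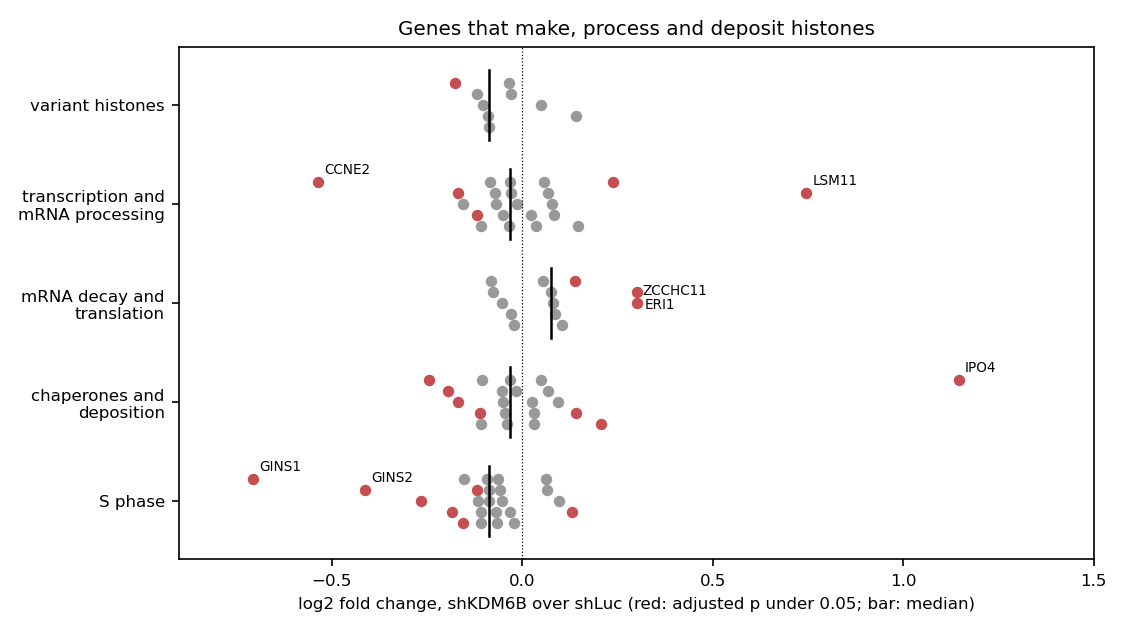
Log2 fold change, shKDM6B over shLuc, of the tested genes of 5 lists on histone variants, histone mRNA synthesis and processing, its decay and translation, histone deposition and S phase, with the list's median as a black bar. Red points passed an adjusted p of 0.05; LSM11 (0.75) is the highest of the processing genes and GINS1 (-0.71) the lowest of S phase.

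Of 13 genes of histone mRNA decay and translation 3 rose and 0 fell, where 39.1% of all tested genes passed and 20.1% were higher. The median was 0.077, and 0.134 with sparse-gene scaling, and no other had an unadjusted p under 0.05 by edgeR. ERI1, the exonuclease that trims the stem-loop end, was at 53.5, 53.1 and 59.0 CPM in shLuc and 64.8, 68.1 and 70.9 CPM in shKDM6B. It rose by 0.30 (SE 0.056, adjusted p = 0.00019). ZCCHC11 (TUT4), which adds uridines to RNA ends, also rose by 0.30 (SE 0.047, adjusted p = 2.06e-05), and MTPAP rose by 0.14 (adjusted p = 0.0463). MTPAP missed the threshold without any 1 of 5 libraries, all but shLuc replicate 3 (adjusted p 0.0657 to 0.211). For both ERI1 and ZCCHC11 all shKDM6B libraries were above all shLuc libraries.

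Of 21 chaperones and other genes that carry or deposit histones, 3 rose and 4 fell, where 39.1% of all tested genes passed (median -0.032). With sparse-gene scaling 3 were higher and 1 lower, with a median of 0.026. The importin IPO4 rose by 1.15 (adjusted p = 0.0011), from 1.78 ± 0.59 to 3.998 ± 0.73 CPM (SD, n = 3). ATRX fell by 0.24 (adjusted p = 0.000628), CHAF1B of the replication-coupled assembly factor CAF-1 fell by 0.19 (adjusted p = 0.0017), and the H3-H4 chaperone NASP fell by 0.17 (adjusted p = 0.00344). With sparse-gene scaling CHAF1B and NASP did not pass (adjusted p = 0.109 and 0.271). Of 20 genes listed as variant histones 9 were tested, 0 rose and 1 fell (median -0.088). That is 1 of 9, against 39.1% of all tested genes. The gene that fell, H2AFV, was at 236 ± 2.5 and 209 ± 7.9 CPM (SD, n = 3), with a log2 fold change of -0.18 (adjusted p = 0.00243). One more, H2AFZ, had an unadjusted p under 0.05. With sparse-gene scaling the count turned to 1 higher and 0 lower, since H2AFV did not pass (adjusted p = 0.254) and the centromeric H3 variant CENPA did (log2 fold change 0.20, adjusted p = 0.0474), and the median was -0.030.

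Since histone mRNA follows S phase, markers of the cell cycle are given beside these values, and their part in them was not tested. Of 24 S phase genes 1 rose and 6 fell, where 39.1% of all tested genes passed, with a median of -0.087 that was -0.028 with sparse-gene scaling. GINS1 fell by 0.71 (adjusted p = 1.06e-09), GINS2 by 0.41 (adjusted p = 8.85e-06), POLA1 by 0.27 (adjusted p = 2.58e-05) and RRM1 by 0.18 (adjusted p = 0.00224, and 0.223 with sparse-gene scaling). The number of S phase genes called was 4 with that scaling, with DESeq2 and without shLuc replicate 1. Of 18 genes of G2 and mitosis 4 rose and 6 fell, again beside 39.1% of all tested genes (median -0.028, and 0.027 with that scaling). The falls did not stay the larger number: 4 were higher and 2 lower with sparse-gene scaling, 4 higher and 3 lower with DESeq2, and 3 higher and 3 lower without the keratin-rich libraries. KIF11 rose by 0.53 and NUSAP1 by 0.22, while CENPE fell by 0.42 and CENPF by 0.30 on the log2 scale.

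Of 34 other genes between the HIST1 genes on chromosome 6, 14 were tested, 1 rose and 2 fell, where 39.1% of all tested genes passed (median -0.050, and 0.006 with sparse-gene scaling). BTN3A3 fell by 1.15 (adjusted p = 0.001), BTN3A2 fell by 0.30 (adjusted p = 7.33e-06) and ABT1 rose by 0.15 (adjusted p = 0.0181). ABT1 did not pass without shLuc replicate 3 (adjusted p = 0.107), without shKDM6B replicate 2 (adjusted p = 0.133), with the DESeq2 Wald test (adjusted p = 0.129) or without the keratin-rich libraries (adjusted p = 0.436). None of the 7 tested RNAs without a poly(A) tail passed (0 by edgeR at an unadjusted p under 0.05, 0 by DESeq2 and 0 by limma-voom), with a median of -0.050 that was 0.007 with that scaling.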

How the data were processed

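RNA-seq libraries of MM.1S cells (3 shLuc, 3 shKDM6B) were analysed from 1 table of raw counts per library, deposited by the authors. Per the submitters' processing notes the reads were handled with STAR, featureCounts and DESeq on GRCh37 (hg19); for their versions, the annotation, the strand setting and the handling of reads that fit several genes, nothing is given in the sources used here. The authors' normalized values, a deposited signal on a linear scale, equalled counts divided by 1 factor per library and matched 56609 of the 56637 symbols. In each library 1 line, whose name had turned into a date and which held no count, was left out. By replicate number, the libraries held 7338393, 8844319 and 8996159 counts (shLuc) and 7952156, 8485739 and 9848351 counts (shKDM6B).

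The main test was the quasi-likelihood test of edgeR 4.0.16 (R 4.3.3) on all 6 libraries, after filterByExpr and TMM scaling, with no term but the group. Adjustment was by Benjamini-Hochberg over 13839 genes, with a threshold of 0.05. The fit was also run on simulated data with means, library sizes and dispersions taken from these libraries, and the outcome is not given here. SEs were derived from the log2 fold change and the quasi-likelihood F. DESeq2 1.42.0, limma-voom and limma-trend (limma 3.58.1) and other scalings, filters and sets of libraries were alternatives. Every histone gene past the filter is named, with the 3 of highest count among those that failed it; of each other list up to 4 genes past the threshold with the smallest p, and SLBP, NPAT, CASP8AP2, LSM10, LSM11 and KDM6B. CENPA, H2AFZ, EPCAM and the untested histone genes HIST1H2AL, HIST1H3E and HIST1H2BO were named after their values were seen. The members and lists were chosen with earlier results of these data known. Lists are described by counts and medians, with no set test. Exon lengths and 50-base windows come from GENCODE v29 (GRCh38) and names (75 genes matched) and promoters (65 matched) from RefSeq; no GRCh37 annotation was used here.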

Additional observations from a re-analysis of the deposited data

How the results depend on the processing

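Of the 22 tested histone genes 20 missed the threshold, most with wide intervals. Over all alternatives 338 of 373 values for single histone genes kept their direction and their side of the threshold, 27 reversed, 4 lost the threshold and 4 passed it. The 2 called histone genes became 1 without the 3 keratin libraries and 0 with the DESeq2 Wald test, and leaving out 1 library gave 2 to 3. The 36 called genes of the pathway lists became 23 with the DESeq2 Wald test, and 27 to 34 when 1 library was left out. With sparse-gene scaling they were 26, of which 17 were higher and 9 lower, against 14 higher and 22 lower in the main test, so the balance turned. Sparse-gene scaling (3210 genes below 0.03 counts per base of exon), chosen after the data were seen, raised the median log2 fold change by 0.058.

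Summed levels moved to a ratio of 0.846 for H2B and 1.499 for H3 when summed over genes past the filter alone, to 0.928 for H2B with sparse-gene scaling, and to 1.14 for H2A with HIST1H2AC left out. The filtered H3 sum is raised by its selection, since HIST1H3D passed the filter through its shKDM6B libraries alone. Over all H3 genes but HIST1H3D the ratio was 1.12. Leaving out 1 library gave 0.934 to 0.976 for all genes, 0.823 to 0.932 for H1, 0.930 to 0.990 for H2A, 0.884 to 0.907 for H2B, 1.201 to 1.38 for H3 and 0.998 to 1.09 for H4.

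The log2 fold changes that reversed were at most 0.21 in size. HIST1H1E was at 0.00044 with the replicate block, 0.0054 with DESeq2, 0.0032 with limma-trend and 0.055 with sparse-gene scaling. HIST1H2BD was at -0.050 without the keratin libraries. HIST1H4H was at -0.0092 with upper-quartile scaling and -0.064 without the keratin libraries. HIST1H2AG was at 0.000796 with no filter, 0.0096 with DESeq2 and 0.056 with sparse-gene scaling, and SLBP at 0.045 with that scaling. With 1 library left out, HIST1H3C ran from -0.17 to 0.30, HIST1H4C from -0.14 to 0.32, HIST1H1E from -0.094 to 0.12, HIST1H2BD from -0.061 to 0.089, HIST1H3G from -0.12 to 0.45, HIST1H4H from -0.072 to 0.14, HIST1H2AG from -0.18 to 0.14 and SLBP from -0.045 to 0.033. The cause was not tested.

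HIST1H2AC and HIST1H3D passed with each library left out in turn (adjusted p 0.00284 to 0.0357 and 0.00664 to 0.031). Whether the replicate numbers pair the libraries was not settled. Same-numbered deviations correlated at 0.12, -0.077 and 0.15. The shLuc replicates 1 and 3 correlated best with their own number, and shLuc replicate 2 did not. Deviations from a mean of 3 libraries cannot decide on pairing. With the replicate block 3 histone genes were called (HIST1H1C joining at an adjusted p of 0.0436) and 49 pathway genes, with 11 of S phase, 2 variant histones and 5 locus neighbours. The share of all tested genes called with the block is not given here, so a general rise in calls cannot be told apart from one in these genes. NPAT (adjusted p = 0.0305) and LSM10 (adjusted p = 0.022) passed with it.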
